A study of Mus musculus with 48 samples.

Results

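Bin1, Clu, Picalm, Abca7, Sorl1, Cd2ap, Ptk2b, Mef2c and Fermt2 are the mouse orthologs of 9 genes at human Alzheimer disease risk loci that are not mainly microglial. They were taken by symbol from both expression tables, and all 9 are among the 16952 genes that the tables share. RNA of the cerebral cortex was measured in 48 mice, in 12 groups of 4 by genotype, sex and exposure. The genotypes were C57BL/6J wild type (B6) and APOE-TR mice, in which human APOE3 or APOE4 replaces both copies of mouse Apoe, so that no APOE-TR group has the mouse gene. Controls breathed filtered air, and exposed mice breathed nPM, the nano-sized particles of polluted city air. Exposure took 5 hours on each of 3 days a week and lasted 8 weeks in B6 and 15 weeks in APOE-TR mice. Labelled ages were 4 months (B6) and 6 months (APOE-TR). The strains were exposed at different times and tabulated separately, so strain, age, duration and table cannot be told apart.

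The risk genes act in a few connected processes. Picalm, Bin1 and Cd2ap encode adaptors of clathrin-mediated endocytosis, membrane curvature and actin, and Sorl1 encodes a sorting receptor that returns the amyloid precursor protein from endosomes. Clu encodes a secreted chaperone carried on lipoproteins, made largely by astrocytes, and Abca7 a lipid transporter. Ptk2b encodes a calcium-responsive tyrosine kinase of neurons, Fermt2 a kindlin that activates integrins, and Mef2c a transcription factor of neuronal genes. In bulk tissue, fewer cells of a type and less RNA per cell cannot be told apart.

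Values below are the deposited CPM, a read count that the authors scaled to library size, and differences are log2 of TMM-rescaled CPM with 0.5 added, from limma. Estimated depth was 17.9 to 31.3 M reads in APOE-TR mice, without overlap between females (at most 22.3 M) and males (at least 22.5 M), and 2.08 to 24.4 M in B6 mice. Xist was at least 90.3 CPM in every female and at most 0.397 CPM in every male. Mouse Apoe was at least 164 CPM in every B6 mouse and at most 30.7 CPM in every APOE-TR mouse. Of the 7 defining markers in each list, all were detected in all 48 mice for neurons, astrocytes, microglia and oligodendrocytes. Libraries differed in a property that bears on long transcripts. The length slope of a mouse, the slope of its log2 levels relative to the other mice of its table on log2 exon length, was between -0.10 and 0.15 in the 24 APOE-TR mice other than APOE3 females. It was -0.52, -0.38, -0.14 and -0.11 in the APOE3 female controls 61, F6, 63 and 52, and -0.21 in the APOE3 female nPM mouse 55. Within the B6 table the slope was 0.01 to 0.08 in females and -0.22 (control male 0) to 0.07 in males. For many comparisons described below that include APOE3 females, values of genes named are also given with the length slope as a covariate or without 3 mice. These are the 3 lowest of the APOE-TR table (controls 61 and F6, nPM mouse 55), called below the 3 mice of lowest length slope. The nPM and allele fits over all APOE-TR mice alone were not repeated in this way.

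Promoter sequence is shown for the 3 genes that moved most among APOE3 females, Abca7 and Sorl1 in 1 direction and Fermt2 in the other. The stretches lie upstream of the start (RefSeq, GRCm38.p6), read 5′ to 3′ on the gene's strand, with the GC box (GGGCGG, or CCGCCC on the other strand) in capitals.
Abca7: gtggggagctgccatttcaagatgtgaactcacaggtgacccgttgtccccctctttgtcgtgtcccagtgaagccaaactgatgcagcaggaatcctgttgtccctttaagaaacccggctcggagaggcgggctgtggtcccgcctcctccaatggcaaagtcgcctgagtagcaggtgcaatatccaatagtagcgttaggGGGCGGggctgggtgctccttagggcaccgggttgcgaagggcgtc
Sorl1: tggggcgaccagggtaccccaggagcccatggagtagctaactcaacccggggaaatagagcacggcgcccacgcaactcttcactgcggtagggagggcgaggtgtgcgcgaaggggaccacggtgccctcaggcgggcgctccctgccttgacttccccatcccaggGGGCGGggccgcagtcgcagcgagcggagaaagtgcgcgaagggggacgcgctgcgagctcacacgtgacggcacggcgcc
Fermt2: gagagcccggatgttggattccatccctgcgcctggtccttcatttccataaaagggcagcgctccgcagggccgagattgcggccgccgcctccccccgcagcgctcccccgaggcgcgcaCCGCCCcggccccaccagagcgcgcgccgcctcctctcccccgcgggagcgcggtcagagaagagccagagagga
They are chr10:79996244-79996493 (plus strand), chr9:42124298-42124547 (minus strand) and chr14:45530119-45530315 (minus strand). Fermt2 is shown only up to the start of the GENCODE gene, and its full window of 250 bases held 5 GC boxes against 1 each for Abca7 and Sorl1. A GC box was present in 32.7% of all 32851 windows of that length. GC content was 58.8% for Abca7, 69.6% for Sorl1 and 76% for Fermt2, where the median window had 52.4%. Abca7 also held 2 CCAAT boxes (CCAAT or ATTGG; in 33.8% of windows) and Sorl1 an E-box (CACGTG; in 6.02%). Windows were examined for 6 of the 9 genes. None was examined for Bin1, Clu and Ptk2b, because none was listed or because the gene was left out of the search.

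Levels between genes are compared per kb of exon (GENCODE M21, mm10). Clu was the most abundant, with a mean of 232 CPM per kb in APOE-TR and 168 in B6 mice. In APOE-TR mice Mef2c (72.7), Ptk2b (56.3), Bin1 (35.4), Fermt2 (18.2), Picalm (11.7), Sorl1 (7.67), Cd2ap (3.82) and Abca7 (1.78) followed. In B6 mice the order was Ptk2b (37.6), Mef2c (26.4), Bin1 (23.2), Sorl1 (17.8), Fermt2 (14.4), Picalm (4.81), Cd2ap (1.3) and Abca7 (0.421), with Abca7 resting on as few as 11 estimated reads in a mouse. The ranges of neighbours over mice overlapped, except between Clu and the next gene in both tables and between Fermt2 and Picalm in B6 mice.

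**Figure D1:**
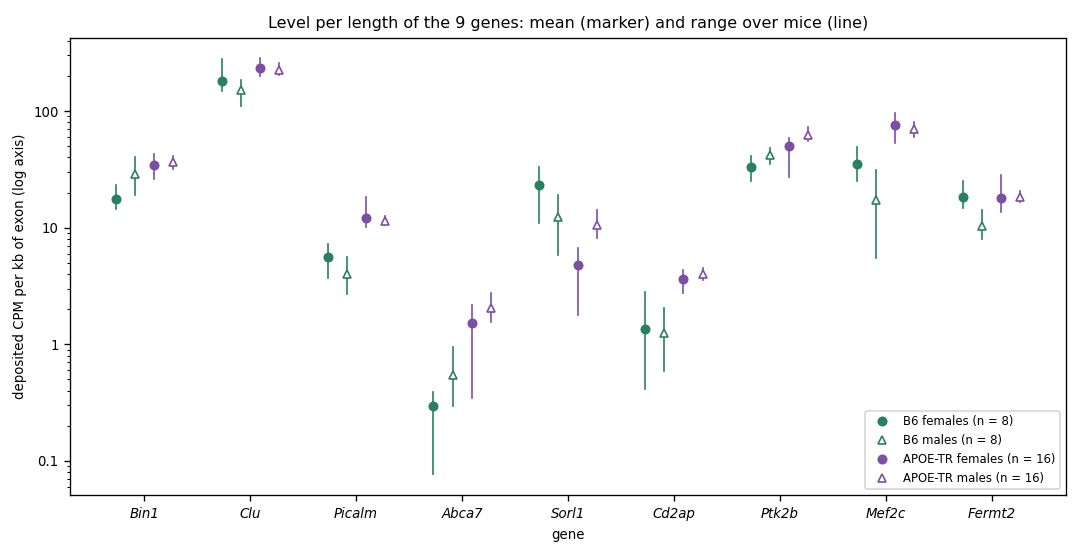
Deposited CPM per kb of exon (log axis) for each gene, as the mean (marker) and the range over mice (line) for B6 females and males (n = 8 each) and APOE-TR females and males (n = 16 each). Clu is the most abundant gene and Abca7 the least in each set, and Sorl1 has lower levels in APOE-TR females than in APOE-TR males.

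Of all 9 genes, Picalm had the lowest median coefficient of variation within APOE-TR groups, 4.37%, and the other endocytic adaptors Bin1 and Cd2ap had 8.31% and 8.56%. Positions are those of GENCODE M21 on mm10. Picalm (chromosome 7 from 90130213 to 90213465, plus strand) was between 83.8 and 149 CPM in APOE-TR mice, with group means of 91.2 to 98.9 CPM in 7 of 8 groups and 117 ± 25.1 (SD, n = 4) in APOE3 female controls. In B6 mice it averaged 45.9 ± 9.74 in control females and 47 ± 12.3 in nPM females, and 31.8 ± 8.64 and 33.4 ± 8.46 in the corresponding males. Bin1 (chromosome 18, plus strand) had its highest means in APOE4 mice, 93.6 ± 9.71 in control females, 88.6 ± 7.05 in nPM females, and 92.8 ± 6.12 and 92.7 ± 2.73 in control and nPM males. In APOE3 mice the means were 71.9 ± 6.23, 80.9 ± 8.3, 85.3 ± 10.2 and 85.5 ± 5.33 in the same order. B6 females were lowest, with 41.8 ± 9 in controls and 43.9 ± 9.02 with nPM, and B6 males had 62.7 ± 16.2 and 77.7 ± 14.4. Cd2ap (chromosome 17 from 42792951 to 42876665, minus strand) was between 14.9 and 24.4 CPM in APOE-TR mice and between 2.23 and 15.2 in B6 mice.

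Sorl1 (chromosome 9 from 41964720 to 42124297, minus strand) varied most among groups of a table, with a root mean square of 0.62 of its log2 group means around the table mean. Its mean was 299.6 ± 56.8 CPM in B6 control females and 31.9 ± 12.1 in APOE3 control females. APOE-TR males were at 114 ± 21.2 (APOE3 control), 124 ± 20.7 (APOE3 nPM), 106 ± 17.4 (APOE4 control) and 108 ± 15.3 (APOE4 nPM). APOE-TR females were at 52.4 ± 16.9 (APOE3 nPM), 55.3 ± 8.78 (APOE4 control) and 65.1 ± 5.62 (APOE4 nPM). No APOE-TR female reached the lowest APOE-TR male: the highest female had 71.6 CPM and the lowest male 87.5 CPM. The 4 male groups overlapped one another.

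The lipid genes differed in abundance and in spread. Clu (chromosome 14 from 65968483 to 65981547, plus strand) was between 362 and 513 CPM in APOE-TR mice, with the highest group mean in APOE3 control females (476 ± 28.1) and the lowest in APOE4 nPM females (376 ± 9.36). In B6 mice the 4 group means were 267 to 362 CPM. Abca7 (chromosome 10 from 79996494 to 80015572, plus strand) had group means of 10.7 to 15.4 CPM in 7 APOE-TR groups and 5.43 ± 3.12 in APOE3 control females, where its coefficient of variation was 57.4%. In B6 mice it averaged 1.87 to 3.89 CPM. The tables differ in the gene bounds they list for several of the 9 genes, Abca7 among them (start 79997615 in the APOE-TR and 79996494 in the B6 table).

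Among the signalling genes, Ptk2b (chromosome 14 from 66153257 to 66281052, minus strand) was between 213 and 296 CPM in the 24 APOE-TR mice other than APOE3 females. APOE3 females averaged 156 ± 42.1 in controls and 203 ± 18.7 with nPM, and B6 groups averaged 134 to 171 CPM. Fermt2 (chromosome 14 from 45458795 to 45530118, minus strand) averaged 77.9 ± 15 in APOE3 control females and 52.3 to 63.6 CPM in the other 7 APOE-TR groups. Mef2c (chromosome 13 from 83504034 to 83667080, plus strand) was between 392 and 710 CPM in APOE-TR mice and between 40.2 and 358 in B6 mice, so that its ranges in the 2 tables did not overlap.

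**Figure D2:**
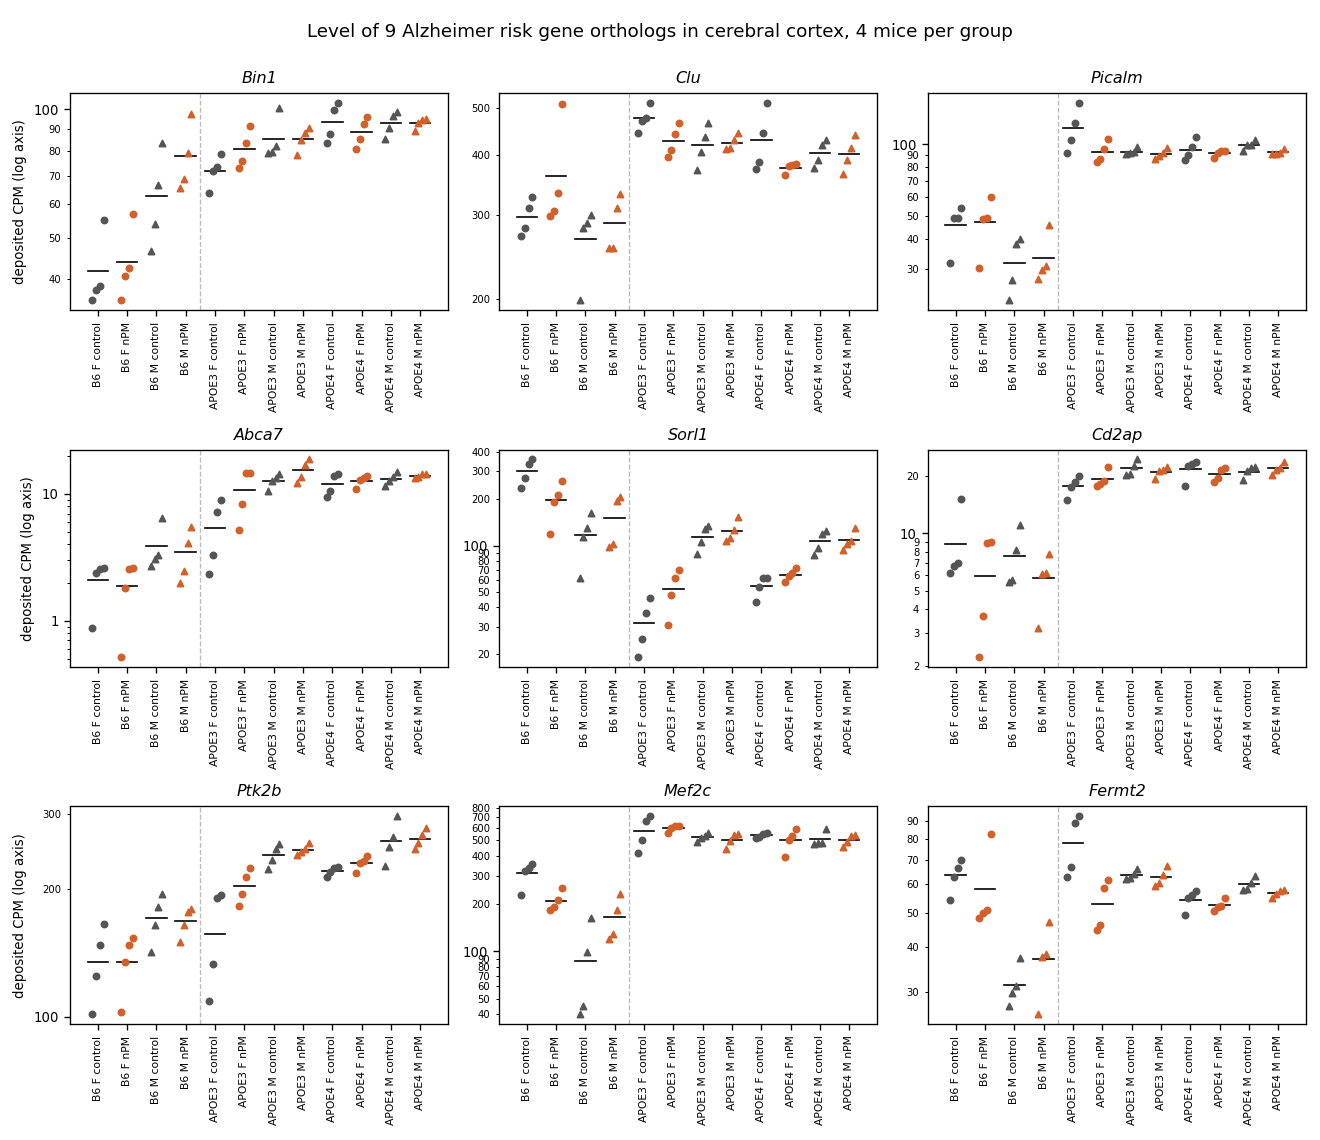
Deposited CPM (log axis) of each gene in every mouse, by group, with controls in grey and nPM in orange, females as circles and males as triangles, and a bar at the group mean (n = 4). The dashed line divides B6 from APOE-TR mice, which come from separate tables. APOE3 control females have the largest coefficient of variation for Abca7, Sorl1 and Ptk2b, and every APOE-TR female is below every APOE-TR male for Sorl1.

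Whether nPM changes these genes was asked over all mice, with terms for sex and genotype. None of the 9 genes was called at an unadjusted p under 0.005 (limma), where 1.49% of 11080 genes were, and 0 of 9 had p under 0.05, where 14.5% did. Voom, edgeR and DESeq2 also called 0 of the 9, where they called 0.826%, 1.44% and 2.09% of all genes. The largest log2 differences were 0.17 for Abca7 (standard error 0.15, unadjusted p = 0.274), -0.16 for Cd2ap (0.11, unadjusted p = 0.144) and 0.13 for Sorl1 (0.19, unadjusted p = 0.476). Without the 3 mice of lowest length slope these were 0.07, -0.17 and 0.04. The smallest adjusted p among the 9 was 0.468 (limma). Fitted in each table alone, 0 of 9 were called too, where 0.695% of all genes were in APOE-TR and 0.533% in B6 mice. In APOE-TR mice the log2 differences were 0.36 for Abca7 (unadjusted p = 0.0389), 0.30 for Sorl1 (unadjusted p = 0.0406), 0.15 for Ptk2b (unadjusted p = 0.0459), -0.16 for Fermt2 (unadjusted p = 0.0083) and -0.10 for Picalm (unadjusted p = 0.0337), all with an adjusted p of 0.276 (limma). For this fit the share of all genes at p under 0.05 was not counted, so these genes cannot be set against it. The fit includes the 3 mice of lowest length slope and was not repeated with the slope as a covariate. In B6 mice Abca7 was at -0.17 and Sorl1 at -0.15, opposite in sign to APOE-TR mice, and Cd2ap was at -0.49 (unadjusted p = 0.102). The median difference was 0.08 for the 9 genes, with 6 higher and 3 lower, and -0.01 for all genes tested.

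Within sex and genotype, 0 of 9 genes passed p under 0.005 in any of the 6 comparisons of 4 with 4 mice, by limma, voom, edgeR or DESeq2. The share of all genes called by limma was 1.18% in B6 females, 0.234% in B6 males, 0.671% in APOE3 females, 0.154% in APOE3 males, 0.266% in APOE4 females and 0.178% in APOE4 males. With the other tools it was between 0.154% (edgeR, APOE3 males) and 2.85% (DESeq2, APOE3 females). At p under 0.05 the counts were 2, 1, 1, 0, 1 and 0 of 9 in that order, where 10.4%, 4.34%, 21%, 2.24%, 5.56% and 4.19% of all genes passed. Groups of 4 overlapped for all 9 genes in B6 females, B6 males, APOE3 males and APOE4 females, where 6.76%, 2.24%, 1.55% and 3.47% of all genes did not overlap.

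In B6 females the genes nearest the threshold were Mef2c and Sorl1, both lower with nPM. Mef2c was 226, 323, 334 and 358 CPM in controls and 182, 191, 210.2 and 251 CPM with nPM. The highest nPM mouse was above the lowest control, and the log2 difference was -0.52 (standard error 0.16, unadjusted p = 0.00663, adjusted p = 0.387, limma). Sorl1 was 234, 272, 335 and 358 CPM in controls and 118, 190.1, 213 and 259 CPM with nPM, which also overlap. Its log2 difference was -0.61 (standard error 0.21, unadjusted p = 0.0126, adjusted p = 0.391, limma). The summed level of 7 neuron markers was 6087 to 6683 CPM in these controls and 4372 to 6544 CPM with nPM, and that of 7 astrocyte markers 3166 to 3655 and 2391 to 2994 CPM. Their part in the result was not tested.

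In B6 males Mef2c had the opposite sign. It was 40.2, 45.5, 99.6 and 162 CPM in controls and 120.1, 128, 183 and 230.2 CPM with nPM, so that only the highest control reached into the nPM range. The log2 difference was 1.09 (standard error 0.38, unadjusted p = 0.0117, adjusted p = 0.999, limma). The lowest controls, 0 and 2, rest on 951 and 1452 estimated reads of Mef2c, and their length slopes were -0.22 and 0.04. Without control 3 or with the variance shared over all 12 groups, Mef2c passed p under 0.005. Over the settings that kept all 8 mice, the length slope as a covariate among them, its difference was 0.91 to 1.11. Neuron marker sums were 2199 to 4648 CPM in these controls and 3649 to 4720 CPM with nPM, and their part was not tested.

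In APOE3 females Abca7, Sorl1, Fermt2 and Ptk2b had the largest differences with nPM of the 9 genes, and none passed the threshold. Fermt2 was 62.9, 67.1, 88.8 and 92.7 CPM in controls and 44.7, 46.1, 58.6 and 61.7 CPM with nPM, without overlap between the groups. Groups of 4 were free of overlap for 6.61% of all genes in this comparison. The log2 difference of Fermt2 was -0.49 (standard error 0.15, unadjusted p = 0.0115, adjusted p = 0.23, limma), and it was -0.38 without the 3 mice of lowest length slope and -0.24 with the length slope as a covariate. Sorl1 was 19.1, 25.2, 36.9 and 46.3 CPM in controls and 30.8, 47.8, 61.6 and 69.3 CPM with nPM. Its log2 difference was 0.79 (standard error 0.35, unadjusted p = 0.0511), 0.52 without the 3 mice and 0.03 with the covariate. Abca7 was 2.36, 3.29, 7.21 and 8.88 CPM in controls and 5.18, 8.27, 14.6 and 14.6 CPM with nPM, from 48 to 414 reads a mouse. Its log2 difference was 1.02 (standard error 0.47, unadjusted p = 0.0611), 0.58 without the 3 mice and -0.02 with the covariate. Ptk2b was 109, 133, 190.2 and 193 CPM in controls and 182, 194, 213 and 224 CPM with nPM, and the log2 difference was 0.48 (standard error 0.22, unadjusted p = 0.0586), 0.14 without the 3 mice and 0.01 with the covariate. For Mef2c the difference grew under these settings. Its log2 difference of 0.16 (standard error 0.15) was 0.38 (unadjusted p = 0.01) without the 3 mice and 0.41 (unadjusted p = 0.00385, limma) with the covariate, which passes p under 0.005 as 0.647% of all genes did in that fit. Beside these values, the summed level of 7 microglial markers was 328 to 421 CPM in controls and 238 to 322 CPM with nPM, and that of 7 oligodendrocyte markers 4814 to 6509 and 3788 to 5053 CPM. Their part was not tested.

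The 3 mice with the lowest length slopes stood apart in several of these genes. Controls 61 and F6 and nPM mouse 55 had the 3 lowest slopes of the 32 APOE-TR mice, and they had the 3 lowest levels of Sorl1 (19.1, 25.2 and 30.8 CPM), of Abca7 (2.36, 3.29 and 5.18 CPM) and of Ptk2b (109, 133 and 182 CPM). Controls 61 and F6 had the 2 highest levels of Fermt2 (88.8 and 92.7 CPM), of Picalm (149 and 122 CPM) and of Mef2c (710 and 661 CPM). With 61.7 CPM of Fermt2, nPM mouse 55 was the highest of the APOE3 nPM females but below all 4 controls. The exons of Sorl1, Abca7 and Ptk2b span 10.7, 6.75 and 4.03 kb, and those of Picalm, Mef2c and Fermt2 8.21, 7.31 and 3.29 kb. The part of exon length in the levels of these genes was not tested.

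**Figure D3:**
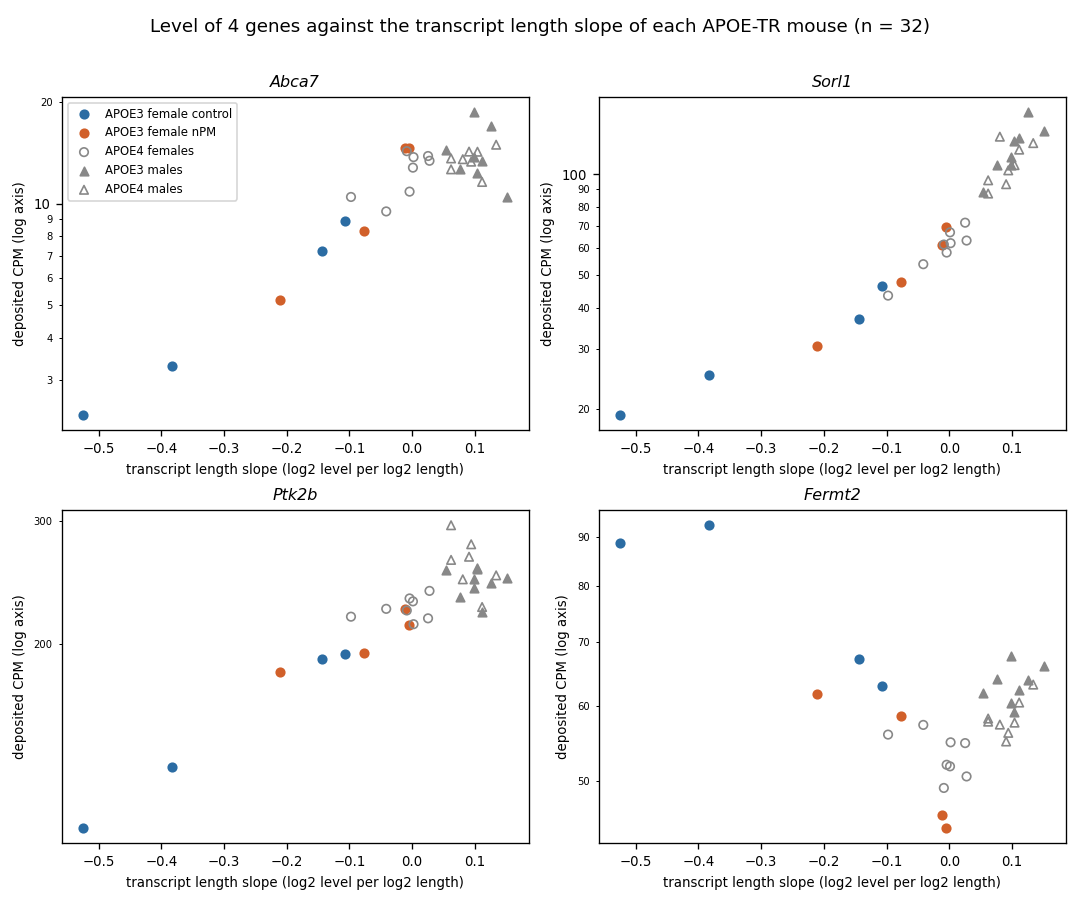
Deposited CPM (log axis) of Abca7, Sorl1, Ptk2b and Fermt2 in each of the 32 APOE-TR mice against that mouse's transcript length slope. Blue points are APOE3 control females, orange points APOE3 nPM females, and grey symbols the other mice (circles, females; triangles, males; filled, APOE3). The 3 lowest slopes, -0.52, -0.38 and -0.21, go with the 3 lowest levels of Abca7, Sorl1 and Ptk2b.

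In the remaining APOE-TR groups the responses to nPM were small. In APOE3 males the log2 differences ran from -0.05 (Mef2c) to 0.27 (Abca7, standard error 0.13, unadjusted p = 0.0731), and in APOE4 males from -0.09 (Picalm) to 0.08 (Abca7). In APOE4 males Fermt2 was 57.7 to 63.1 CPM in controls and 55.1 to 57.6 CPM with nPM, without overlap (2.54% of all genes), with a log2 difference of -0.07 (standard error 0.04, unadjusted p = 0.123). In APOE4 females Sorl1 was 43.4 to 62.2 CPM in controls and 58.3 to 71.6 CPM with nPM, with a log2 difference of 0.25 (standard error 0.11, unadjusted p = 0.0477, adjusted p = 0.754, limma), and -0.0070 (unadjusted p = 0.924) with the length slope as a covariate.

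The comparison of APOE4 with APOE3 asks whether the human allele moves the risk genes. Over all mice 0 of 9 genes passed 5% FDR (limma), where 0.37% of 11080 genes did. At an unadjusted p under 0.05 there were 2 of 9, Ptk2b and Bin1, where 14.5% of all genes passed. Ptk2b was higher in APOE4 by a log2 difference of 0.22 (standard error 0.07, unadjusted p = 0.00357, adjusted p = 0.256), and it was 0.13 (unadjusted p = 0.041) without the 3 APOE3 females of lowest length slope. Bin1 was higher by 0.19 (standard error 0.09, unadjusted p = 0.0417, adjusted p = 0.329), and by 0.18 (unadjusted p = 0.0681) without those 3 mice. With the 32 APOE-TR mice alone both passed 5% FDR, as did 5.94% of 15970 genes, Bin1 at 0.21 (adjusted p = 0.0122) and Ptk2b at 0.25 (adjusted p = 0.0447, limma). EdgeR and DESeq2 called 0 of 9 over all mice, with 0.397% and 0.641% of all genes. Voom with batch adjustment called Bin1, with 1.8% of all genes.

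In control females 0 of 9 genes passed 5% FDR, where 0.231% of 16416 genes did, but 6 of 9 had p under 0.05, where 41.1% of all genes did. Bin1 was 63.7, 71.6, 73.3 and 78.7 CPM in APOE3 mice and 83.3 to 104 CPM in APOE4 mice, a log2 difference of 0.45 (standard error 0.12, unadjusted p = 0.0051, adjusted p = 0.0766, limma). Abca7, Sorl1, Ptk2b and Cd2ap were higher in APOE4 by 1.28, 0.92, 0.60 and 0.36, and Fermt2 was lower by a log2 difference of -0.43, with adjusted p of 0.0766 to 0.0806 (limma). The groups did not overlap for Bin1, Abca7, Ptk2b and Fermt2, 4 of 9 genes, where this held for 29.3% of all genes. Abca7 was 9.48 to 14.3 CPM, Ptk2b 213 to 224 CPM and Fermt2 49.2 to 57.3 CPM in the APOE4 controls. Without controls 61 and F6 the differences were 0.33 for Bin1, 0.56 for Abca7, 0.42 for Sorl1, 0.22 for Ptk2b, 0.43 for Cd2ap and -0.24 for Fermt2. With the length slope as a covariate Abca7 was at 0.18 (unadjusted p = 0.302), Sorl1 at 0.11 (unadjusted p = 0.312), Ptk2b at 0.03 (unadjusted p = 0.712) and Fermt2 at -0.18 (unadjusted p = 0.102). Bin1 was then at 0.27 (unadjusted p = 0.0499) and Cd2ap at 0.45 (unadjusted p = 0.00929). Mef2c, at 0.01 over all 8 mice, was at 0.26 (unadjusted p = 0.0381) without controls 61 and F6 and at 0.35 (unadjusted p = 0.00972) with the covariate. DESeq2 on recovered reads called 5 of the 9 at 5% FDR (Bin1, Abca7, Sorl1, Cd2ap and Fermt2), where it called 25.3% of 16405 genes. EdgeR and voom called 0, where they called 0.201% and 0.238% of all genes. These APOE3 controls also serve in the comparison of nPM with control females.

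In nPM females 0 of 9 genes passed 5% FDR, where 0.145% of all genes did, and 1 of 9, Ptk2b, had p under 0.05, where 9.12% did. Its log2 difference was 0.20 (standard error 0.08, unadjusted p = 0.0405), 0.14 (unadjusted p = 0.0624) without nPM mouse 55 and 0.08 (unadjusted p = 0.218) with the length slope as a covariate. Clu was 396 to 464 CPM in APOE3 and 362 to 383 CPM in APOE4 mice, without overlap (5.92% of all genes), with a log2 difference of -0.16 (standard error 0.07, unadjusted p = 0.0536), which was -0.16 (unadjusted p = 0.0481) without mouse 55 and -0.11 (unadjusted p = 0.111) with the covariate. In control males 0 of 9 genes passed 5% FDR, where 0.439% of all genes did, and 0 of 9 had p under 0.05, where 5.81% did. No gene of the 9 was free of overlap there, where 3.59% of all genes were. In nPM males 0 of 9 passed 5% FDR, where 0.498% did, and 2 of 9 had p under 0.05, where 9.89% did. These were Fermt2, at 59.2 to 67.6 CPM in APOE3 and 55.1 to 57.6 CPM in APOE4 mice (log2 difference -0.14, standard error 0.05, unadjusted p = 0.0123), and Bin1 (log2 difference 0.12, standard error 0.05, unadjusted p = 0.0345). The groups did not overlap for Fermt2, as for 5.66% of all genes. Voom, edgeR and DESeq2 called 0 of 9 in these 3 comparisons, where they called between 0.139% (edgeR, nPM females) and 1.25% (DESeq2, nPM males) of all genes. Bin1 and Ptk2b were higher in APOE4 in each of the 4 comparisons of 4 with 4, and Clu was lower in each. In control females, nPM females, control males and nPM males the log2 differences of Bin1 were 0.45, 0.15, 0.13 and 0.12. Those of Ptk2b were 0.60, 0.20, 0.11 and 0.09, and those of Clu -0.09, -0.16, -0.05 and -0.08. With the covariate Ptk2b was at 0.03 in control females and 0.08 in nPM females. In nPM females the Bin1 difference was 0.03 to 0.15 under the other settings. How many of all genes kept their sign over the 4 comparisons was not counted.

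**Figure D4:**
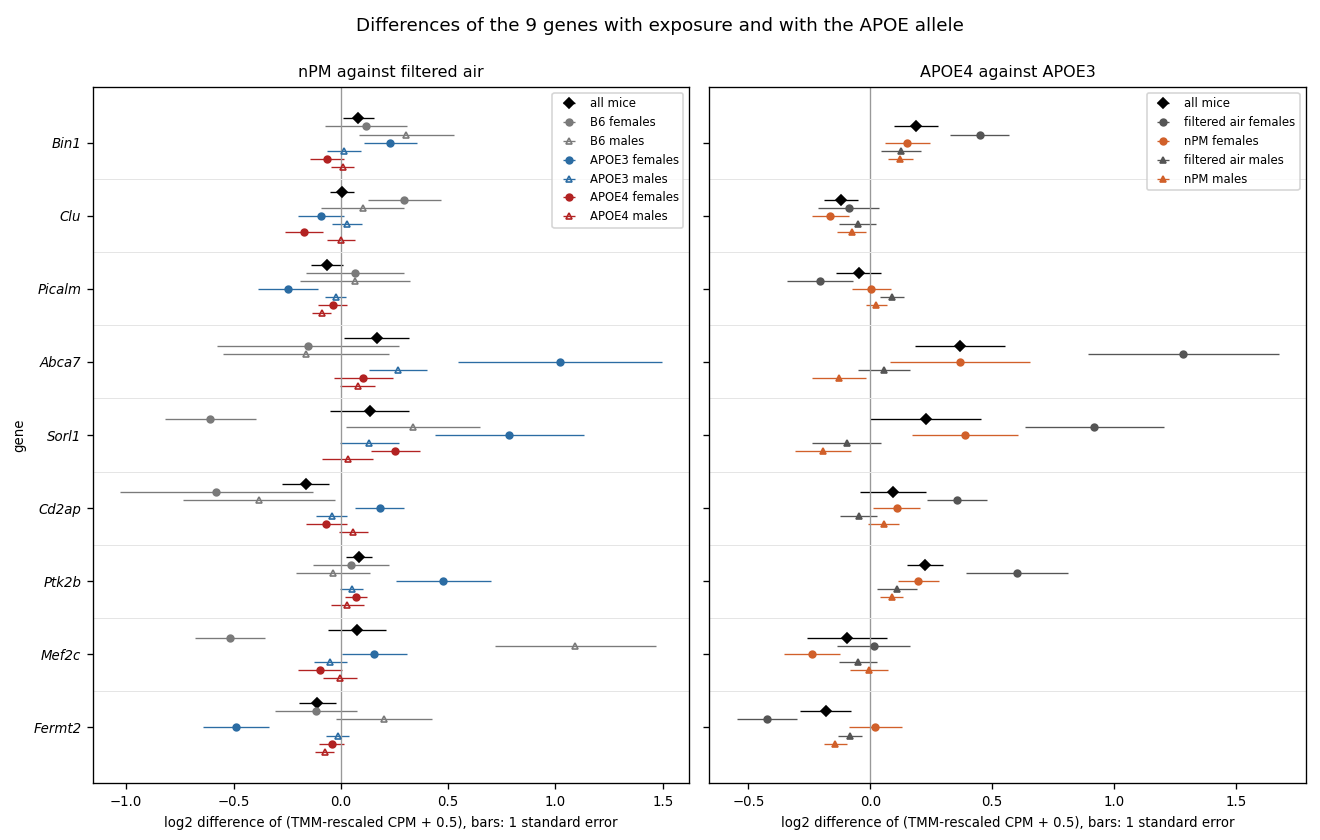
Log2 differences (horizontal axis, with bars of 1 standard error from limma) of each gene for nPM against filtered air over all mice and in 6 sets of 8 mice (left), and for APOE4 against APOE3 over all mice and in 4 sets of 8 mice (right). Positive values are higher with nPM or with APOE4. The values farthest from 0 are those of Abca7 and Sorl1 in comparisons with APOE3 control females, and of Mef2c in B6 males.

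Responses to nPM were then compared with each other. Between the sexes (females minus males, averaged over genotypes) 0 of 9 genes passed p under 0.005, where 1.98% of 11080 genes did, and 2 of 9 had p under 0.05, where 13.8% did. Voom, edgeR and DESeq2 also called 0, where they called 1.86%, 2.14% and 3.09% of all genes. For Mef2c the difference was -0.52 (standard error 0.19, unadjusted p = 0.00851, adjusted p = 0.262, limma), from responses of -0.52 and 1.09 in B6 females and males, 0.16 and -0.05 in APOE3, and -0.10 and -0.01 in APOE4. For Fermt2 it was -0.27 (standard error 0.12, unadjusted p = 0.0241). Without the 3 mice of lowest length slope Mef2c was at -0.43 (unadjusted p = 0.0345) and Fermt2 at -0.22 (unadjusted p = 0.0585). Between alleles (APOE4 minus APOE3, averaged over sexes) 0 of 9 passed p under 0.005 by limma, voom, edgeR or DESeq2, where 0.726% of 15970 genes did by limma, and 1 of 9 had p under 0.05, where 10.6% did. By voom, edgeR and DESeq2, 0.755%, 0.751% and 1.22% of all genes passed p under 0.005. In males alone 0 of 9 passed p under 0.005, where 0.0313% did, and 0 of 9 had p under 0.05, where 0.883% did.

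In females the nPM response of 1 of 9 genes differed between alleles at p under 0.005, where 3.76% of 15970 genes did, and 4 of 9 had p under 0.05, where 29.4% did. The gene was Fermt2, with a response of -0.49 in APOE3 and -0.04 in APOE4 females. The difference was 0.45 (standard error 0.13, unadjusted p = 0.00162, adjusted p = 0.126, limma), and voom, edgeR and DESeq2 also called it, with 3.65%, 3.49% and 5.37% of all genes. It was 0.32 (unadjusted p = 0.00495) without the 3 mice of lowest length slope and 0.28 (unadjusted p = 0.0112) with the length slope as a covariate. Leaving out single mice gave 0.37 to 0.53, and the call was lost without APOE4 control 38, APOE3 control F6, or APOE3 nPM mouse 59 or 67 (p up to 0.00619). Bin1, Abca7 and Ptk2b differed in the other direction, by -0.29, -0.91 and -0.40, with unadjusted p of 0.0336, 0.0319 and 0.0353. Without the 3 mice these were -0.24, -0.49 and -0.08 (unadjusted p = 0.0734, 0.0638 and 0.412), and with the covariate -0.19, -0.18 and -0.10 (unadjusted p = 0.142, 0.434 and 0.398). For Mef2c the difference of -0.25 (standard error 0.16) was -0.49 (unadjusted p = 0.00393) without the 3 mice, where it passed p under 0.005 together with Fermt2 and 4.21% of all genes, and -0.42 (unadjusted p = 0.00835, limma) with the covariate.

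Differences between the sexes were compared after the levels had been seen. In APOE-TR mice 4 of 9 genes were lower in females at 5% FDR and none was higher, where 60.4% of 15970 genes differed, 30.6% lower and 29.8% higher (limma, with terms for allele and nPM). Sorl1 was 19.1 to 71.6 CPM in 16 females (median 56.1) and 87.5 to 153 CPM in 16 males (median 109). The sexes were free of overlap for Sorl1 alone of the 9, and for 6.69% of all genes. Its difference of -1.22 on the log2 scale had a standard error of 0.14 (adjusted p = 2.09e-08). It was -0.99 without the 3 mice of lowest length slope and -0.48 (adjusted p = 3.16e-06) with the length slope as a covariate. Abca7 (-0.56), Ptk2b (-0.35) and Cd2ap (-0.14) were the other genes. With the covariate Abca7 and Ptk2b turned sign, to 0.31 (adjusted p = 0.0175) and 0.01 (adjusted p = 0.924), and Picalm was lower in females (-0.16, adjusted p = 0.00187). Cd2ap lost its call with the covariate (-0.06, adjusted p = 0.489) and without the 3 mice (-0.12, adjusted p = 0.0545). Fermt2 gained one, at -0.30 (adjusted p = 5.19e-05) with the covariate and -0.14 (adjusted p = 0.00339, limma) without the 3 mice. In these fits 37% and 56.6% of all genes passed 5% FDR. The sexes of this table did not overlap in depth, in length slope (at most 0.03 in females, at least 0.05 in males) or in the summed level of 7 endothelial markers (38.1 to 76.3 CPM in females and 90.2 to 148 CPM in males). Sex and these properties cannot be told apart here.

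In B6 mice 7 of 9 genes differed by sex at 5% FDR, where 26.1% of 13881 genes did, and 4 were higher and 3 lower in females, where 13.1% and 13% of all genes were. EdgeR called 5 of them, voom 4 and DESeq2 7, where they called 24.6%, 8.98% and 28.7% of the genes each tested. With the length slope as a covariate 2 were called, Bin1 and Fermt2, where 10.7% of all genes were. Leaving out control female 42, control male 3, nPM female 51 or nPM male 12 left 4 called, Bin1, Sorl1, Mef2c and Fermt2. Mef2c (log2 difference 1.20), Sorl1 (0.91), Fermt2 (0.81) and Picalm (0.50) were higher in females, and Abca7 (-0.78), Bin1 (-0.70) and Ptk2b (-0.35) were lower. Fermt2 was 48.3 to 82.8 CPM in 8 females and 26.1 to 47 CPM in 8 males, without overlap, as for 3.61% of all genes (standard error 0.15, adjusted p = 0.000717, limma). Sorl1 was 118 to 358 CPM in females and 62 to 204 CPM in males, the reverse of its order in APOE-TR mice. The difference between the tables was not tested. Neuron marker sums were 4372 to 6683 CPM in B6 females and 2199 to 4720 CPM in B6 males, and their part was not tested.

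Related genes were counted in 6 lists. For nPM over all mice, 0 of 16 paralogs tested, 1 of 15 genes at other risk loci, 0 of 20 endocytosis genes, 1 of 15 retromer genes, 0 of 15 adhesion genes and 0 of 10 lipid genes had p under 0.005, where 1.49% of all genes did. Both called genes were lower: Vps35, the core subunit of retromer, with which Sorl1 works in endosomal sorting (log2 difference -0.21, standard error 0.07, unadjusted p = 0.00424), and the complement regulator Cr1l (-0.40, standard error 0.12, unadjusted p = 0.00214). Without the 3 mice both stayed under 0.005 and the Mef2c paralog Mef2d joined them (0.20), where 0.803% of all genes were called. With the length slope as a covariate Vps35 was at -0.17 (unadjusted p = 0.0085). In B6 females only 1 of 10 lipid genes was called of all the lists, where 1.18% of all genes were. It was Nr1h3, a sterol-sensing nuclear receptor, higher with nPM (1.28, standard error 0.37, unadjusted p = 0.00398, and 0.00627 with the covariate). No gene of the lists was called in the other 5 sets of 8 mice. Without the 3 mice 6 list genes were called in APOE3 females, all higher with nPM (Abca3, Sort1, Mef2d, Dnm1, Lrp1 and Abcg4), where 5.19% of all genes were called. For the allele, 0 genes of the 6 lists passed 5% FDR in any of the 5 comparisons (limma), and 5 did in control females without controls 61 and F6 (Abca2, Gga3, Lrp1, Abcg1 and Abcg4, all higher in APOE4), where 1.85% of all genes did. For the allele difference of the nPM response in females, 6 list genes had p under 0.005, 1 of 16 paralogs, 1 of 23 genes at other risk loci, 0 of 20 endocytosis, 1 of 15 retromer, 1 of 15 adhesion and 2 of 10 lipid genes, where 3.76% of all genes did. Lower were the lipid exporters Abcg1 (-0.51) and Abcg4 (-1.27), the endocytic Bin1 paralog Amph (-0.30), the kinase Fyn (-0.32) and the tetraspanin Tspan14 (-0.41). The retromer subunit Vps29 was higher (0.72). Of these, Abcg1, Abcg4 and Vps29 were called without the 3 mice (-0.35, -0.64 and 0.40), where 8 other list genes were called that had not been (Bin3, Sort1, Mef2d, Dnm1, Gga2, Gga3 and Lrp1 lower, Ilk higher) and 4.21% of all genes. Abcg1, Abcg4 and Tspan14 were called with the covariate (-0.28, -0.50 and -0.35), as were 1.38% of all genes. Over both sexes Tspan14 was called too (-0.25, unadjusted p = 0.00215), with 0.726% of all genes. It was not called without the 3 mice (-0.21, unadjusted p = 0.00559), where Sort1, Gga3, Lrp1 and Abcg4 (lower), Ilk (higher) and 1.89% of all genes were. With the length slope as a covariate Tspan14 stayed called (-0.23, unadjusted p = 0.00406, limma), with 0.651% of all genes.

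The gene whose log2 group means were closest to those of each member, over 12 groups centred within each table, was sought among 11079 genes. By root mean square difference these were Map2k7 for Bin1 (0.05), Pex19 for Clu (0.04), Fbxo7 for Picalm (0.03), Wasf2 for Abca7 (0.10), Tnr for Sorl1 (0.12), Taf8 for Cd2ap (0.06), Ezh1 for Ptk2b (0.05), Zbtb18 for Mef2c (0.08) and Nudt21 for Fermt2 (0.07). The members' own root mean square differences from their table means were 0.11 (Clu) to 0.62 (Sorl1).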

How the data were processed

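The deposited values are CPM as the authors made them from single-end reads of stranded mRNA libraries mapped to mm10 with TopHat2 2.0.8b in Partek Flow, on a scale the sources used here do not give, in 1 table per exposure. In APOE-TR mice they are whole reads plus 1, times 1 step, for 96.2% to 97.1% of low values (within 0.1 of a whole number), so reads were recovered. In B6 mice the share was 87.7% to 98.4% and reads are estimates. Intervals of depth cover counting error only. Symbols listed more than once (4 listings per table) were left out. Control F6 is a column whose label matches no sample, used by the group it names.

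CPM were rescaled by TMM (edgeR 4.0.16), and log2 values with 0.5 CPM added were tested with limma 3.58.1 (R 4.3.3) with a variance trend, over genes detected (above a sample's lowest value) in all mice fitted, with Benjamini-Hochberg adjustment. Calls for nPM and for response differences used an unadjusted p under 0.005, and calls for the allele and for sex 5% FDR. Fits over all mice modelled nPM beside genotype and sex, and response differences were contrasts of group means. Exon lengths are from GENCODE M21, for 96.8% of APOE-TR and 99.3% of B6 genes tested. Alternatives included voom (with ComBat, sva 3.50.0, between tables), edgeR, DESeq2 1.42.0, pseudocounts of 0.1 and 2, no filter, at least 10 reads and each mouse left out. The procedure was tested on simulated data.

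The 9 genes and the lists were chosen with earlier results of these data known. All 9 genes are named. List genes are named where called, at most 4 per direction, list and comparison. The sex comparisons and the exclusion of 3 mice were added after the data were examined.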

Additional observations from a re-analysis of the deposited data

Results flagged for a closer look

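A value far from the 3 others of its group was found in 7 of 108 groups of 4 mice (9 genes in 12 groups), and about 1 in 20 is flagged by chance. The high values were Bin1 at 100.5 CPM in APOE3 control male 55 (next 82.1), Cd2ap at 15.2 CPM in B6 control female 42 (next 6.98), Mef2c at 591 CPM in APOE4 control male 32 (next 482) and Fermt2 at 82.8 CPM in B6 nPM female 51 (next 51). The low values were Clu at 199 CPM in B6 control male 3 (next 281), Abca7 at 0.87 CPM in B6 control female 42 (next 2.39) and Cd2ap at 17.7 CPM in APOE4 control female 7 (next 22.4). The Abca7 value rests on 19 estimated reads.

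The nPM response of Fermt2 differed between APOE4 and APOE3 females by 0.45 on the log2 scale (standard error 0.13, unadjusted p = 0.00162, adjusted p = 0.126, limma). At p under 0.005, 3.76% of all genes were called in the same comparison. The call was lost with the length slope as a covariate (0.28), with shared variance and without some single mice.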

How the results depend on the processing

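No paired analysis was made because animal numbers do not pair mice. Groups of 4 compared with each other share fewer than 2 of these numbers. In the sex comparison of all APOE-TR mice, several numbers occur in both sexes. The count of genes called stayed at 0 under every setting run for nPM over all mice, in APOE3 males and in both APOE4 sexes, for the allele in nPM females and in both male sets, and for the allele difference in males. It became 1 in B6 females without TMM and with sample quality weights (Mef2c) and with the length covariate (Sorl1), and 0 to 2 without single mice (2 without nPM mouse 53, 1 without control 42). In B6 males it became 1 (Mef2c) with shared variance and 0 to 1 without single mice (1 without control 3). In APOE3 females it became 1 with the length covariate (Mef2c) and 2 with shared variance. For the allele over all mice it became 3 with quality weights, 1 with voom and 2 in APOE-TR mice alone. For control females it became 5 with quality weights or DESeq2, 7 with variance shared over the APOE-TR groups, and 0 to 5 without single mice (5 without APOE3 control 52). The share of all genes called moved as well, from 0.231% with limma to 25.3% with DESeq2. Under quality weights, shared variance and single mice left out, the shares are not given, here or for the other comparisons. Those counts therefore cannot be set against all genes. For the difference by sex it was 0 to 1 without single mice (1 without B6 control female 42, control males 3 or 6, nPM female 51 or nPM male 11, or APOE3 control female 52). For the difference by allele it became 2 with quality weights. For that in females, 1 in the report, it became 4 with quality weights, 2 without the 3 mice of lowest length slope, 0 with the length covariate or shared variance, and 0 to 3 without single mice (3 without APOE3 control 52, 2 without control 63 or nPM mouse 55, 0 without control F6, nPM mice 59 or 67, or APOE4 control 38). The added sex count was 4 to 5 without single mice in APOE-TR mice. In B6 mice, 7 in the report, it became 4 without a filter or with voom, 2 with the length covariate, and 4 to 6 without single mice (4 without control female 42, control male 3, nPM female 51 or nPM male 12). With the length covariate the APOE-TR sex difference changed sign for Abca7 (0.31), Picalm (-0.16) and Ptk2b (0.0083). That of Ptk2b was then near 0 (adjusted p = 0.924, limma), and that of Picalm had not been called before (0.05, adjusted p = 0.383, limma). Beyond the length covariate, whose construction takes out that slope, the cause was not tested. Depth limits Abca7 and Cd2ap in B6 mice, with as few as 11 and 18 estimated reads.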
